A study of Mus musculus with 12 samples.

Results

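The genes of glycolysis and of the cellular response to low oxygen were followed across 12 RNA-seq libraries of mouse mesenchymal stromal cell preparations. The list held 38 genes, taken by name, out of 53819 entries of the deposited count table. It comprised 4 transporters of glucose and lactate, 16 glycolytic enzymes, 3 regulators of glycolytic flux, 4 genes of the hypoxia-inducible factor (HIF) and its prolyl hydroxylases, and 11 further hypoxia response genes. All 38 were found and all 38 passed the low-count filter, among 15698 genes tested. Bone marrow (BM) cells from the hind limbs and pelvis grew on collagen I. After the first passage they were flow sorted to keep cells with CD51 and Sca-1 but without CD31, CD45, Ly6C and F4/80 (BM sorted), or were taken as they were (BM nonsorted). Bone-associated cells (BAC), released from hind-limb bone fragments by collagenase I, were cleared of CD45, Ly6C and F4/80 positive cells on magnetic beads (BAC depleted) or left whole (BAC nondepleted). Each of the 4 groups held 3 libraries, the genotype was wild type in all 12, and the sources used here give neither strain, age nor sex. The labels give every library the same culture entry, a medium without ascorbic acid under hypoxic conditions. The oxygen level, the time the bone-associated cells spent in culture and a normoxic control are not given there.

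Glycolysis splits glucose into pyruvate in the cytosol, and cells that reduce the pyruvate to lactate can gain ATP from it without oxygen. When oxygen is low, prolyl hydroxylases no longer mark the alpha subunits of HIF for degradation, and HIF then binds short hypoxia response elements near genes for glucose transport, glycolysis, lactate export, collagen hydroxylation and survival. Stromal cells of the marrow live at low oxygen and lean on glycolysis, and HIF activity is usually set at the level of the protein rather than the RNA. Only RNA was measured here.

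Libraries held 27937709 to 32164725 counts. RNA of macrophages differed between the purified and unpurified groups: 14 macrophage markers summed to 8.60 to 10.9 CPM (counts scaled to TMM-adjusted library sizes) in BM sorted and 5225 to 5926 CPM in BM nonsorted libraries. They summed to 19.0 to 67.2 CPM in BAC depleted and 13226 to 15006 CPM in BAC nondepleted libraries, and in BAC depleted cells 6 of the 14, among them Ptprc and C1qa, were at 0 counts. Stromal markers summed to 44330.4 to 54327 CPM in BM sorted, 32338 to 36902 CPM in BM nonsorted, 26089 to 29831 CPM in BAC depleted and 24653 to 44459 CPM in BAC nondepleted libraries, so stromal RNA was detected in all 4 groups. The library BAC depleted 1 stood apart. It held 43406 counts of Xist and 0 counts of Y-linked genes, while no other library exceeded 16 Xist counts or had fewer than 4812 Y-linked counts. Counts and calls that change without it are given beside the results. Transcripts of the mitochondrial genome made up 1.82% to 2.62% of BAC depleted counts, compared with 1.08% to 1.36% elsewhere.

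Purified bone-associated cells had the lowest glycolytic RNA of the 4 groups. The 16 enzymes together took 1.04%, 0.996% and 1.07% of all counts in BM sorted, 0.982%, 1.04% and 1.04% in BM nonsorted, 0.441%, 0.560% and 0.494% in BAC depleted, and 0.810%, 0.844% and 0.851% in BAC nondepleted libraries. Both marrow groups lay above both bone-associated groups, and the depleted libraries lay below all others. Of the 38 genes, 2 had their lowest group mean in BM sorted, 6 in BM nonsorted, 27 in BAC depleted and 3 in BAC nondepleted cells. The highest mean lay in BM sorted cells for 18, in BM nonsorted cells for 4, in BAC depleted cells for 4 and in BAC nondepleted cells for 12. Libraries of BAC depleted cells also differed most among themselves. The ratio of the highest to the lowest library had a median over the 38 genes of 1.18 in BM sorted, 1.20 in BM nonsorted, 1.63 in BAC depleted and 1.36 in BAC nondepleted cells. In bulk RNA, fewer cells of a type and less RNA per cell cannot be told apart.

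**Figure D1:**
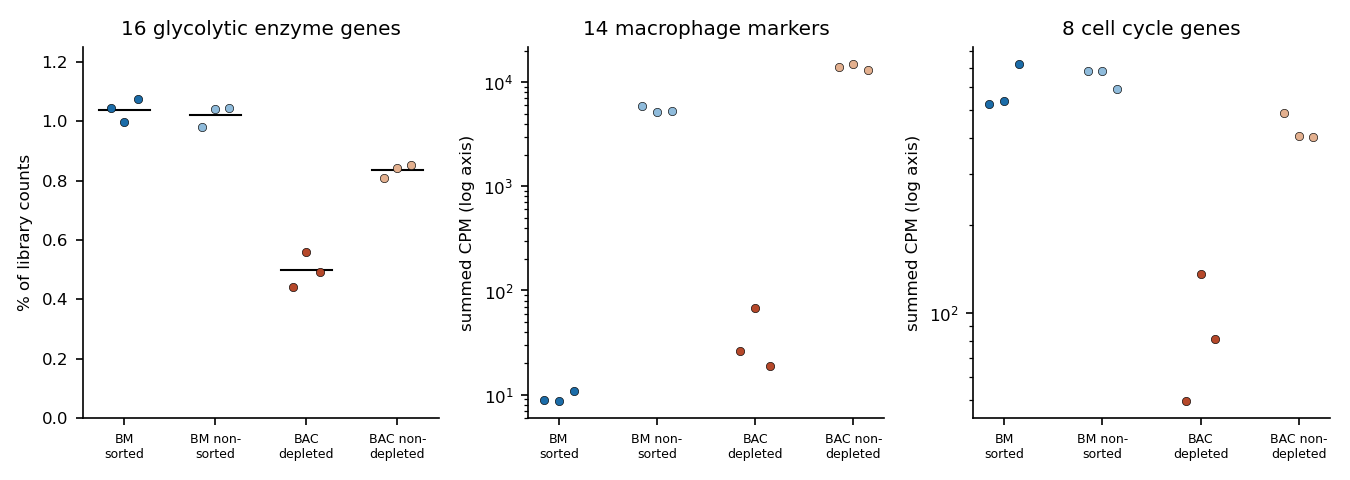
Left: share of all counts (%) taken by the 16 glycolytic enzymes in each library, 1 point per library, with lines for group means. Middle and right: summed CPM (log axis) of 14 macrophage markers and 8 cell cycle genes in the same libraries. The 3 BAC depleted libraries sit between 0.441% and 0.560%, below every other library, and they also have the lowest cell cycle sums.

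Between BM sorted and BAC depleted cells, 23 of the 38 genes were called higher and 4 lower by edgeR's quasi-likelihood test (Benjamini-Hochberg adjusted p under 0.05 over all genes tested). That is 60.5% higher, where 22.9% of all genes tested were, and 10.5% lower, where 24.6% were, or 71.1% and 47.4% in either direction. In 26 genes every BM sorted library was above every BAC depleted library and in 5 every one was below, where 26.4% of all genes were in each direction and 52.8% in either. The median log2 fold change was 0.76 over the 38 genes and -0.02 over all genes. After depletion of bone-associated cells, 17 genes fell and 2 rose. That is 44.7% lower, against 19.9% of all genes, and 5.26% higher, against 17.4%, or 50.0% against 37.3% in either direction, with a median of -0.73 over the 38 genes and 0.05 over all. After sorting of marrow cells 4 genes rose and none fell, 10.5% higher against 0.166% of all genes and 0 lower against 6.06%. In the lower direction 1 gene had an unadjusted p under 0.05 and 1 was called by DESeq2. On sorting, 6.23% of all genes were called in either direction. The median there was 0.14 over the 38 genes and 0.00 over all. Between the unpurified groups, 3 genes were higher and 6 lower in BM nonsorted than in BAC nondepleted cells. These 23.7% of the list stand against 31.7% of all genes called in either direction, so the share was not above the background. No gene of the list was called by edgeR in the same direction on both purifications, and of the 4 that rose on sorting 1 fell on depletion. As none fell on sorting and only 2 rose on depletion, a shared fall could not occur and a shared rise in at most 2. In all, 5 genes (Pfkm, Aldoc, Epas1, P4ha1 and Higd1a) were called in none of the 4 comparisons by edgeR. DESeq2's Wald test called Epas1 higher and Aldoc lower on depletion, and Aldoc lower in BM nonsorted than in BAC nondepleted cells.

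**Figure D2:**
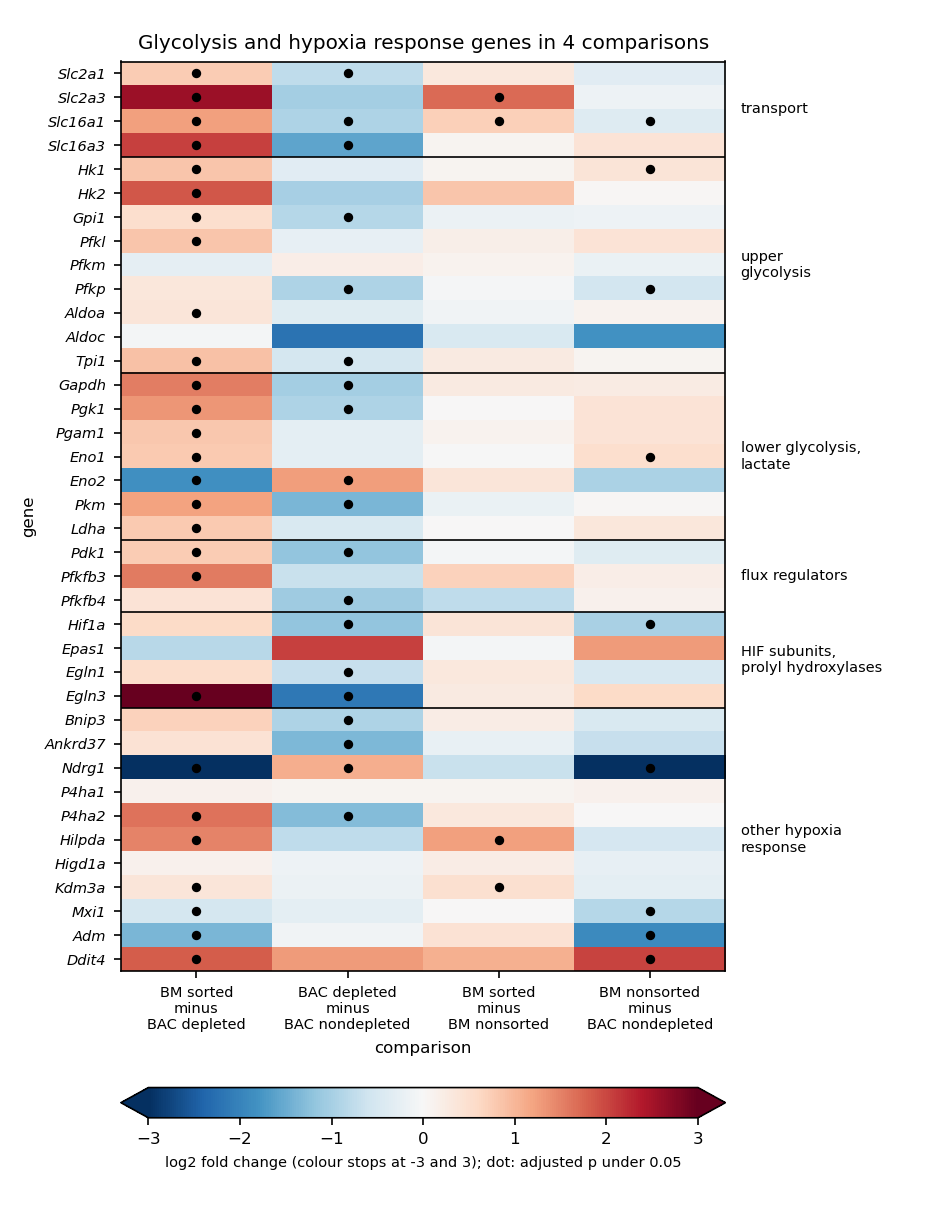
Fitted log2 fold changes of the 38 genes (rows, ordered by role) in the 4 comparisons of 2 groups (columns), with a dot on those called at an adjusted p under 0.05. Colours stop at -3 and 3. The column of BM sorted minus BAC depleted is mostly positive (23 called higher, 4 lower) and that of BAC depleted minus BAC nondepleted mostly negative (17 called lower, 2 higher).

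Windows of 250 bases before to 50 after the annotated start were taken from RefSeq (mouse build GRCm38.p6, whereas the reads were mapped to GRCm39). They were found for 35 of the 38 genes, 53 windows in all, and not for Slc2a3, Ndrg1 and Epas1. The core letters of a hypoxia response element, ACGTG or GCGTG on either strand, occurred in 42 of the 53 windows (79.2%) and in 43.8% of 32851 RefSeq windows of the same length. ACGTG alone occurred in 54.7% of the windows of the list and 19.6% of all windows, and GCGTG in 56.6% and 32.4%. The palindrome CACGTG, an E-box that contains ACGTG, occurred in 11.3% and 7.15%. The windows of the list were also richer in CG, which both core motifs contain, with a median of 21 CG dinucleotides against 7. The shares were not compared at equal CG content. The genes were listed for glycolysis and the hypoxia response, so a higher share is no independent sign of HIF binding. The 6 genes printed first were higher in BM sorted than in BAC depleted cells and fell on depletion, and Eno2, which moved the other way, is printed last. Capitals mark ACGTG or GCGTG, or their complements CACGT or CACGC where the motif lies on the other strand.
Egln3, chr12:54203825-54204124, minus strand: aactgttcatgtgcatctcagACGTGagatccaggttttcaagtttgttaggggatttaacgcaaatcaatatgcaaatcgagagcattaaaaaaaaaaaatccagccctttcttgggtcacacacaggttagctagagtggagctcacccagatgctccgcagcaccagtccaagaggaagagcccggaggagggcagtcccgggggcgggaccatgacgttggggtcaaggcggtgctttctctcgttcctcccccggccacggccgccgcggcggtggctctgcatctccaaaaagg
Slc16a3, chr11:120948817-120949116, plus strand: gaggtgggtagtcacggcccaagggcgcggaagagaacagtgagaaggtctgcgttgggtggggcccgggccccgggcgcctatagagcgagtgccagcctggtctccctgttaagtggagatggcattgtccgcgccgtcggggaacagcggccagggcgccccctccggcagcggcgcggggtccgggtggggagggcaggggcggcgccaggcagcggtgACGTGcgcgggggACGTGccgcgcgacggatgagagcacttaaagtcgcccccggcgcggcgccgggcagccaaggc
Gapdh, chr6:125165724-125166023, minus strand: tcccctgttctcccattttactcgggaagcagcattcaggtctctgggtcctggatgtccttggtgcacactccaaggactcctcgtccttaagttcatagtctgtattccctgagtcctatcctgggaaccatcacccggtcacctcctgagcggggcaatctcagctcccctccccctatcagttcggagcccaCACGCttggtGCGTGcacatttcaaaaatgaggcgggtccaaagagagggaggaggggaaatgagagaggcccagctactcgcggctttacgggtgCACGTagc
Pgk1, chrX:106186850-106187149, plus strand: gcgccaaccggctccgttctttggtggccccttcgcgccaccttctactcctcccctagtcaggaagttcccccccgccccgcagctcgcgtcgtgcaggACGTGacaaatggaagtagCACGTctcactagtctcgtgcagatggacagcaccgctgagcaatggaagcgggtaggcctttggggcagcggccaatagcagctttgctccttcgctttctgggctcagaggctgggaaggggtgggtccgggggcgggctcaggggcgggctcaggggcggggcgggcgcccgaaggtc
Pkm, chr9:59656977-59657276, plus strand: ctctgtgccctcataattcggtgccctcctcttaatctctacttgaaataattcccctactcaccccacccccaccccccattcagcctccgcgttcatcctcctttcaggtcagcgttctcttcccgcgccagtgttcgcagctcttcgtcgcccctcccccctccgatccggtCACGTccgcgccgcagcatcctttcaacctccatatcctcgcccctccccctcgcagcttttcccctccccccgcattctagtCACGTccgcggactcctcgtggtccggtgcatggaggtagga
P4ha2, chr11:54100674-54100973, plus strand: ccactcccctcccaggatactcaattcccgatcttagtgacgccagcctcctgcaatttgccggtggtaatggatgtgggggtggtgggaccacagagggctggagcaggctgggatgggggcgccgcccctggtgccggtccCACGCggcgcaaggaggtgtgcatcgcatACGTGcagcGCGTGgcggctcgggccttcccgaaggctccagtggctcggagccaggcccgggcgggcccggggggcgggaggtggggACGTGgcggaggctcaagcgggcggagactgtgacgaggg
Eno2, chr6:124769624-124769923, minus strand: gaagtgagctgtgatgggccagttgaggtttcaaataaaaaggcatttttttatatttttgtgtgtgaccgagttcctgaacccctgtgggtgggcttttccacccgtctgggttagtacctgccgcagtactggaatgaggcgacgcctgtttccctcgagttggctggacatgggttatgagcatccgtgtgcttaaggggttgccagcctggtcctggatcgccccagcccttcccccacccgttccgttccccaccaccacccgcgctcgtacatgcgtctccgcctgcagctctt
In the printed windows P4ha2 had 4 matches, Gapdh 3, Slc16a3, Pgk1 and Pkm 2 each and Egln3 1, while the Eno2 window held none. Where a gene had several windows, the window with the most matches was printed. This applied to Pkm, where 1 of 2 windows had matches and the window not printed held none. The other printed genes had 1 window each. The printed genes are a chosen few. Gpi1 and Tpi1, not printed, also had no match, yet were called higher in BM sorted than in BAC depleted cells and fell on depletion. Adm and Mxi1, called lower in BM sorted than in BAC depleted cells, had matches. Whether matches go with the direction of change was not tested. A match is a string of letters and not a measured binding site, and its absence from a window says nothing about the factor.

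All 4 transporters were higher in BM sorted than in BAC depleted cells, with no overlap between the libraries. Slc16a3 encodes the carrier that exports lactate from glycolytic cells. It had 318, 400.0 and 427 CPM in BM sorted, 376, 361 and 347 CPM in BM nonsorted, 56.5, 99.3 and 119 CPM in BAC depleted and 198, 256 and 363 CPM in BAC nondepleted libraries. The BAC depleted libraries were the lowest of the 12, and the difference was 2.06 ± 0.29, adjusted p = 0.000345 (log2 fold change ± SE) for BM sorted minus BAC depleted and -1.57 ± 0.28, adjusted p = 0.00178 for BAC depleted minus BAC nondepleted. Slc16a1, a carrier of lactate and pyruvate that works in both directions, had 72.6, 56.7 and 63.9 CPM in BM sorted, 35.2, 43.9 and 38.7 CPM in BM nonsorted, 26.1, 27.6 and 28.4 CPM in BAC depleted and 51.6, 59.7 and 43.8 CPM in BAC nondepleted libraries. It was the only gene of the list that edgeR called in all 4 comparisons of 2 groups. Its log2 fold change was 1.24 ± 0.14, adjusted p = 0.000105 between the purified groups, 0.71 ± 0.13, adjusted p = 0.00744 on sorting and -0.92 ± 0.14, adjusted p = 0.000568 on depletion. Between the unpurified groups it was -0.40 ± 0.13, adjusted p = 0.046, and there the libraries overlapped and the adjusted p was 0.152 (BM nonsorted 1 left out), 0.0518 (BM nonsorted 2 left out), 0.107 (BM nonsorted 3 left out), 0.101 (BAC nondepleted 1 left out) and 0.175 (BAC nondepleted 2 left out). Slc2a3, a high-affinity glucose transporter, had 42.5, 19.1 and 28.7 CPM in BM sorted, 6.74, 13.7 and 7.26 CPM in BM nonsorted, 3.63, 7.04 and 4.67 CPM in BAC depleted and 10.1, 9.20 and 11.6 CPM in BAC nondepleted libraries. Every BM sorted library was above every other library, most of all BM sorted 1. The log2 fold change was 2.56 ± 0.38, adjusted p = 0.000511 between the purified groups and 1.703 ± 0.36, adjusted p = 0.0168 on sorting, where the adjusted p was 0.0708 (BM sorted 1 left out), 0.0873 (BM nonsorted 1 left out) and 0.0848 (BM nonsorted 3 left out). On depletion it was -1.01 ± 0.36, adjusted p = 0.0515, which was not called. Slc2a1, the widespread basal glucose transporter, had 166, 164 and 166 CPM in BM sorted, 138, 133 and 126 CPM in BM nonsorted, 63.4, 101 and 128 CPM in BAC depleted and 128, 176 and 194 CPM in BAC nondepleted libraries. Its log2 fold change was 0.76 ± 0.23, adjusted p = 0.0185 between the purified groups (adjusted p = 0.0513 in a fit of these groups only) and -0.77 ± 0.23, adjusted p = 0.0223 on depletion, where BAC depleted 3 and BAC nondepleted 1 were almost equal and the adjusted p was 0.0649 (BAC nondepleted 2 left out) and 0.0756 (BAC nondepleted 3 left out).

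**Figure D3:**
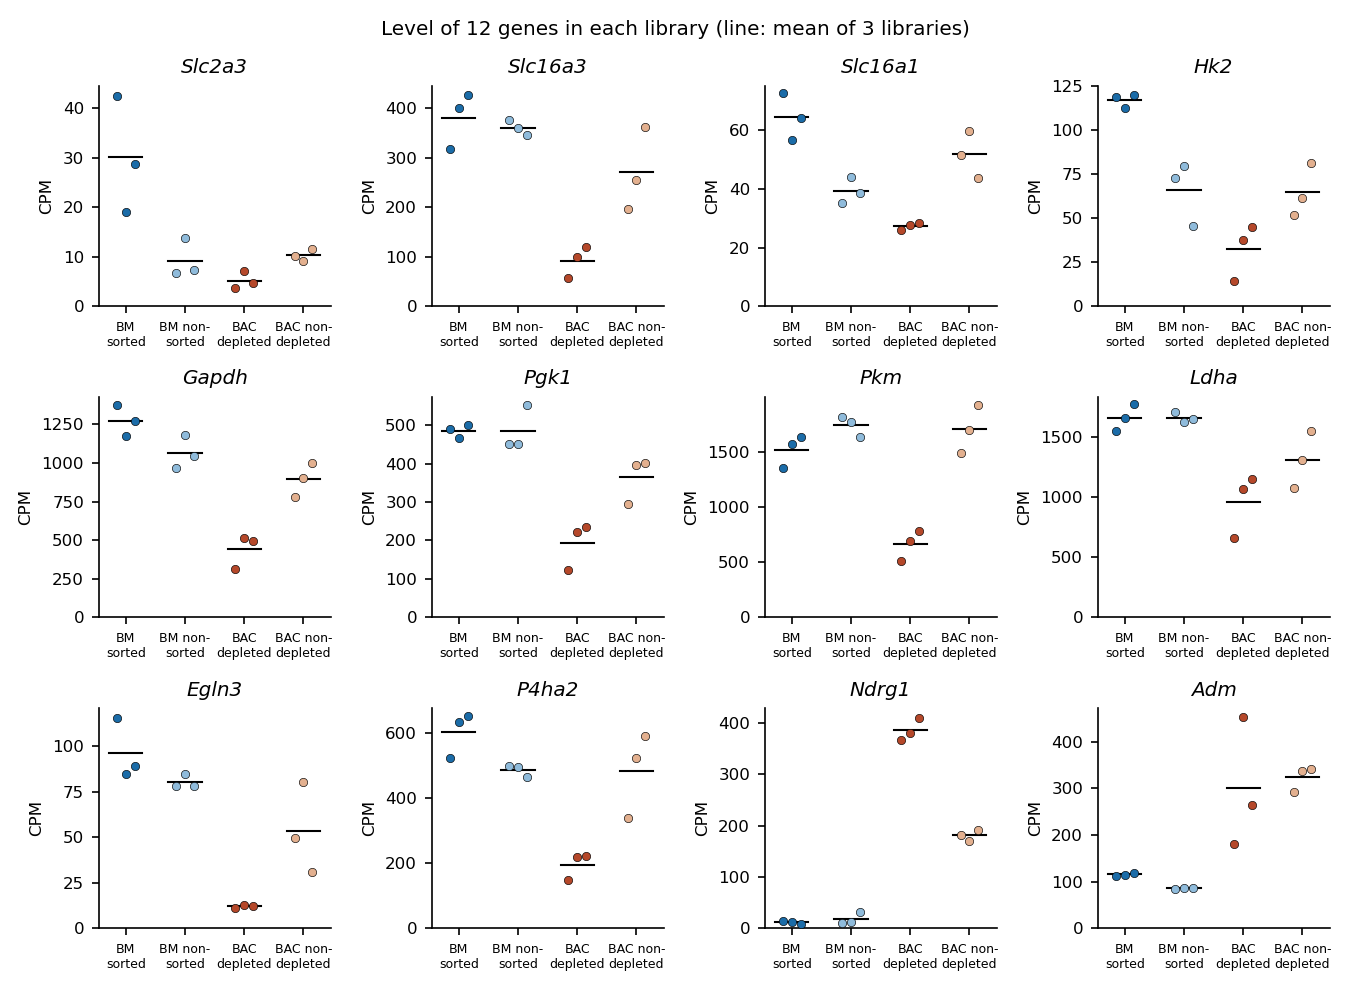
CPM of 12 of the genes in every library, with BM sorted, BM nonsorted, BAC depleted and BAC nondepleted libraries from left to right; each point is 1 library and each line a group mean over 3 libraries. Egln3 and Slc16a3 are lowest in BAC depleted libraries, and Ndrg1 is highest there.

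The 9 enzymes of the preparatory steps of glycolysis were less uniform, with 6 higher in BM sorted than in BAC depleted cells and 3 lower after depletion. Hk2, the inducible hexokinase, had 119, 113 and 120.0 CPM in BM sorted, 73.2, 79.5 and 45.9 CPM in BM nonsorted, 14.6, 37.5 and 45.0 CPM in BAC depleted and 51.7, 61.5 and 81.6 CPM in BAC nondepleted libraries. Its BM sorted libraries were above all others, and it differed between the purified groups (1.86 ± 0.37, adjusted p = 0.00252). On depletion its log2 fold change was -1.005 ± 0.36, adjusted p = 0.051, which was not called. Hk1, the housekeeping hexokinase, had 289, 273 and 254 CPM in BM sorted, 262, 264 and 239 CPM in BM nonsorted, 129.6, 168 and 160.4 CPM in BAC depleted and 169, 190.2 and 223 CPM in BAC nondepleted libraries. It was higher in marrow than in bone-associated cells both after purification (0.84 ± 0.13, adjusted p = 0.000727) and before it (0.39 ± 0.13, adjusted p = 0.044), but the second of these had an adjusted p of 0.114 (BM nonsorted 1 left out), 0.126 (BM nonsorted 2 left out), 0.0625 (BM nonsorted 3 left out), 0.16 (BAC nondepleted 1 left out) and 0.122 (BAC nondepleted 2 left out). Pfkl, a subunit of phosphofructokinase, the committed step of glycolysis, had 513, 479 and 480.2 CPM in BM sorted, 406, 452 and 439 CPM in BM nonsorted, 202, 330.0 and 292 CPM in BAC depleted and 292, 339 and 350.3 CPM in BAC nondepleted libraries, and was higher in BM sorted cells (0.84 ± 0.17, adjusted p = 0.0024). Pfkp, another subunit, moved with the bone-associated comparison instead and had 135, 133 and 119 CPM in BM sorted, 143, 127 and 129 CPM in BM nonsorted, 103, 83.3 and 119 CPM in BAC depleted and 155, 218 and 206 CPM in BAC nondepleted libraries. It fell on depletion (-0.92 ± 0.16, adjusted p = 0.00128) and was lower in BM nonsorted than in BAC nondepleted cells (-0.54 ± 0.16, adjusted p = 0.0245), where it had an adjusted p of 0.0834 (BM nonsorted 2 left out), 0.0692 (BM nonsorted 3 left out), 0.0942 (BAC nondepleted 2 left out) and 0.0683 (BAC nondepleted 3 left out).

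Gpi1, which turns glucose phosphate into fructose phosphate, had 531, 489 and 499.8 CPM in BM sorted, 589.7, 560.2 and 579 CPM in BM nonsorted, 306, 321 and 439.6 CPM in BAC depleted and 655, 715 and 567 CPM in BAC nondepleted libraries. It fell on depletion (-0.86 ± 0.15, adjusted p = 0.00163) and was higher in BM sorted cells (0.51 ± 0.15, adjusted p = 0.0182), where the adjusted p was 0.0508 (BM sorted 1 left out), 0.0525 (BAC depleted 1 left out) and 0.0551 (BAC depleted 2 left out). Tpi1, which interconverts the triose phosphates, had 954, 811 and 897 CPM in BM sorted, 673, 814 and 731 CPM in BM nonsorted, 386, 469 and 589 CPM in BAC depleted and 620.1, 699 and 768 CPM in BAC nondepleted libraries. It was higher in BM sorted than in BAC depleted cells (0.88 ± 0.17, adjusted p = 0.002) and lower after depletion (-0.53 ± 0.17, adjusted p = 0.0306), where the adjusted p was 0.0773 (BAC depleted 1 left out), 0.0655 (BAC depleted 2 left out), 0.0736 (BAC nondepleted 2 left out) and 0.093 (BAC nondepleted 3 left out). Aldoa, the main aldolase, had the smallest called difference of the enzymes. It had 1466, 1336 and 1395 CPM in BM sorted, 1449.6, 1433 and 1649 CPM in BM nonsorted, 962, 1223 and 1075 CPM in BAC depleted and 1385, 1499 and 1318 CPM in BAC nondepleted libraries. Its difference between the purified groups was small (0.36 ± 0.14, adjusted p = 0.0497) and had an adjusted p of 0.119 (BM sorted 1 left out), 0.0936 (BM sorted 2 left out), 0.112 (BM sorted 3 left out), 0.11 (BAC depleted 1 left out) and 0.0899 (BAC depleted 3 left out). The muscle subunit Pfkm ranged only from 54.4 to 89.6 CPM over all 12 libraries. Aldoc, the brain aldolase, had 3.15, 7.85 and 44.5 CPM in BAC depleted libraries, against 70.7, 95.4 and 92.3 CPM in BAC nondepleted libraries. Its fitted value on depletion was -2.22 ± 0.81, adjusted p = 0.0541, which was not called, and BAC depleted 3 lay far above the other BAC depleted libraries.

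Of the 7 enzymes of the later steps, 6 were higher in BM sorted than in BAC depleted cells without overlap, and 1, Eno2, was lower. Gapdh, which makes the NADH that lactate formation uses up again, had 1375, 1174 and 1274 CPM in BM sorted, 968, 1182 and 1045 CPM in BM nonsorted, 312, 511 and 497 CPM in BAC depleted and 783, 902 and 1001 CPM in BAC nondepleted libraries. The log2 fold change was 1.53 ± 0.20, adjusted p = 0.000235 between the purified groups and -1.02 ± 0.20, adjusted p = 0.00263 on depletion. Pgk1, the first ATP-forming step, had 490.3, 466 and 499.8 CPM in BM sorted, 452, 452 and 552 CPM in BM nonsorted, 122, 221 and 236 CPM in BAC depleted and 295, 395 and 401 CPM in BAC nondepleted libraries. It differed by 1.33 ± 0.23, adjusted p = 0.00114 between the purified groups and by -0.92 ± 0.23, adjusted p = 0.0106 on depletion, and in both cases the BAC depleted libraries lay below. In a fit of the compared groups only, the call on depletion was lost (adjusted p = 0.0662). Pkm, pyruvate kinase, had 1351, 1572 and 1633 CPM in BM sorted, 1814, 1776 and 1640.2 CPM in BM nonsorted, 512, 690.0 and 784 CPM in BAC depleted and 1495, 1699 and 1928 CPM in BAC nondepleted libraries. Its largest difference was on depletion (-1.37 ± 0.18, adjusted p = 0.000293), and it was also higher in BM sorted than in BAC depleted cells (1.20 ± 0.18, adjusted p = 0.000553). Both marrow groups overlapped BAC nondepleted cells in Pkm. Pgk1, Gapdh and other abundant enzymes have processed pseudogenes of nearly the same sequence. The sources used here do not say how reads shared with them were counted, which leaves their absolute levels uncertain.

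Ldha, the subunit of lactate dehydrogenase that favours lactate formation, had 1547, 1655 and 1774 CPM in BM sorted, 1703, 1621 and 1649 CPM in BM nonsorted, 655, 1069 and 1146 CPM in BAC depleted and 1075, 1303 and 1545 CPM in BAC nondepleted libraries. It was higher in BM sorted than in BAC depleted cells (0.79 ± 0.21, adjusted p = 0.0119), while its value on depletion was -0.45 ± 0.21, adjusted p = 0.121 and was not called, with overlapping libraries. Eno1, the ubiquitous enolase, had 746, 843 and 876 CPM in BM sorted, 863, 824 and 803 CPM in BM nonsorted, 359.9, 527 and 537 CPM in BAC depleted and 591, 642 and 515 CPM in BAC nondepleted libraries. It was higher in marrow cells after purification (0.79 ± 0.17, adjusted p = 0.00326) and before it (0.51 ± 0.17, adjusted p = 0.0386), and in the second case the adjusted p was 0.107 (BM nonsorted 1 left out), 0.0968 (BM nonsorted 2 left out), 0.0736 (BM nonsorted 3 left out), 0.0963 (BAC nondepleted 1 left out), 0.0625 (BAC nondepleted 2 left out) and 0.121 (BAC nondepleted 3 left out). Pgam1, phosphoglycerate mutase, had 165, 166 and 157 CPM in BM sorted, 156, 153 and 145 CPM in BM nonsorted, 55.5, 123 and 100.2 CPM in BAC depleted and 92.2, 113 and 134 CPM in BAC nondepleted libraries and differed between the purified groups (0.81 ± 0.24, adjusted p = 0.0188), where the adjusted p was 0.0526 (BM sorted 2 left out). Eno2, the enolase named for neurons, ran against the rest of the pathway at a low level. It had 4.26, 3.74 and 4.87 CPM in BM sorted, 2.65, 3.72 and 3.66 CPM in BM nonsorted, 25.2, 11.2 and 9.79 CPM in BAC depleted and 8.42, 6.83 and 4.19 CPM in BAC nondepleted libraries. It was lower in BM sorted than in BAC depleted cells (-1.85 ± 0.38, adjusted p = 0.00277). It rose on depletion (1.251 ± 0.37, adjusted p = 0.0228), most of all in BAC depleted 1, and the adjusted p was 0.08 (BAC depleted 1 left out), 0.0593 (BAC nondepleted 2 left out) and 0.077 (BAC nondepleted 3 left out). Without BAC depleted 1 the value between the purified groups was -1.30 ± 0.28, adjusted p = 0.00497.

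The 3 regulators of flux were each called in at least 1 comparison. Pdk1 encodes a kinase that blocks pyruvate dehydrogenase and so keeps pyruvate from the mitochondria, and it is a textbook HIF target. It had 291, 235 and 258 CPM in BM sorted, 221, 243 and 358 CPM in BM nonsorted, 125, 148 and 189 CPM in BAC depleted and 321, 348 and 387 CPM in BAC nondepleted libraries. It fell on depletion (-1.19 ± 0.20, adjusted p = 0.0014) and was higher in BM sorted than in BAC depleted cells (0.76 ± 0.20, adjusted p = 0.0112). Pfkfb3 and Pfkfb4 make and break the strongest allosteric activator of phosphofructokinase, and the balance in Pfkfb3 favours making it. Pfkfb3 had 204, 211 and 226 CPM in BM sorted, 113, 129.6 and 155 CPM in BM nonsorted, 115, 48.3 and 56.2 CPM in BAC depleted and 104, 124 and 118 CPM in BAC nondepleted libraries. All 3 BM sorted libraries were above all others, and the difference from BAC depleted cells was 1.55 ± 0.28, adjusted p = 0.00147. Its value on sorting was 0.69 ± 0.27, adjusted p = 0.249, which was not called although the libraries did not overlap. Pfkfb4 had 10.6, 15.9 and 18.3 CPM in BM sorted, 27.4, 24.2 and 24.9 CPM in BM nonsorted, 13.5, 8.95 and 11.1 CPM in BAC depleted and 25.2, 24.5 and 20.4 CPM in BAC nondepleted libraries. It fell on depletion (-1.06 ± 0.21, adjusted p = 0.00296), and its value on sorting, also downward, was -0.77 ± 0.20, adjusted p = 0.0559 and was not called.

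Among the oxygen-sensing genes the clearest difference was in Egln3, a prolyl hydroxylase that marks HIF alpha subunits and is itself induced by HIF. It had 116, 84.5 and 89.0 CPM in BM sorted, 78.1, 84.6 and 78.1 CPM in BM nonsorted, 11.4, 12.6 and 12.5 CPM in BAC depleted and 49.5, 80.6 and 31.1 CPM in BAC nondepleted libraries. The BAC depleted libraries lay close together and below all others. Egln3 was higher in BM sorted than in BAC depleted cells by 2.99 ± 0.29, adjusted p = 6.77e-05 and fell on depletion by 2.14 ± 0.29, adjusted p = 0.000313. Without BAC depleted 1 these were 2.94 ± 0.36, adjusted p = 0.000355 and -2.10 ± 0.35, adjusted p = 0.0019. Egln1, the main prolyl hydroxylase under normal oxygen, had 238, 219 and 214 CPM in BM sorted, 163, 180.4 and 193 CPM in BM nonsorted, 112, 154 and 197 CPM in BAC depleted and 173, 244 and 330.3 CPM in BAC nondepleted libraries. It was lower after depletion (-0.69 ± 0.24, adjusted p = 0.0441), with overlapping libraries and an adjusted p of 0.127 (BAC depleted 1 left out), 0.0834 (BAC depleted 2 left out), 0.0869 (BAC nondepleted 2 left out) and 0.166 (BAC nondepleted 3 left out). Hif1a, the widely expressed alpha subunit of HIF, had 528, 504 and 458 CPM in BM sorted, 371, 419.9 and 352 CPM in BM nonsorted, 226, 336 and 438 CPM in BAC depleted and 544, 598 and 1118 CPM in BAC nondepleted libraries. BAC nondepleted 3 stood well above the rest. Hif1a fell on depletion (-1.18 ± 0.29, adjusted p = 0.0106; adjusted p = 0.0733 in a fit of the compared groups only) and was lower in BM nonsorted than in BAC nondepleted cells (-0.98 ± 0.29, adjusted p = 0.0275). Without BAC nondepleted 3 these were -0.78 ± 0.23, adjusted p = 0.0323 and -0.59 ± 0.23, adjusted p = 0.094, and the second was also lost when any BM nonsorted library was left out (adjusted p 0.0798, 0.0628 and 0.0811). Epas1, the alpha subunit with a more restricted range of cell types, had 12.2, 189 and 38.5 CPM in BAC depleted libraries against 13.9, 23.9 and 20.3 CPM in BAC nondepleted libraries, and 33.1 to 60.2 CPM in the 6 marrow libraries. BAC depleted 2 lay far above the other BAC depleted libraries and Epas1 was called in no comparison by edgeR. On depletion DESeq2's Wald test called it higher (2.05 ± 0.70, adjusted p = 0.0123).

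The 11 other hypoxia response genes did not move as a block. Ndrg1, a stress-inducible gene linked to differentiation and growth arrest, showed the largest difference of the list. It had 14.4, 12.3 and 7.72 CPM in BM sorted, 10.4, 11.8 and 32.1 CPM in BM nonsorted, 367, 382 and 409 CPM in BAC depleted and 182, 171 and 192 CPM in BAC nondepleted libraries. The bone-associated libraries were all far above the marrow libraries. Ndrg1 was lower in BM sorted than in BAC depleted cells (-5.07 ± 0.45, adjusted p = 4.27e-05) and lower in BM nonsorted than in BAC nondepleted cells (-3.33 ± 0.41, adjusted p = 0.000665). On depletion it was higher (1.09 ± 0.38, adjusted p = 0.0465), but the adjusted p was 0.0731 (BAC depleted 1 left out), 0.0747 (BAC depleted 2 left out), 0.0886 (BAC depleted 3 left out), 0.107 (BAC nondepleted 1 left out), 0.121 (BAC nondepleted 2 left out) and 0.0941 (BAC nondepleted 3 left out). P4ha2, a catalytic subunit of the collagen prolyl hydroxylase, was also lowest in BAC depleted cells and had 523, 634 and 651 CPM in BM sorted, 499.6, 496 and 466 CPM in BM nonsorted, 148, 218 and 221 CPM in BAC depleted and 339, 521 and 589 CPM in BAC nondepleted libraries. It was higher in BM sorted than in BAC depleted cells (1.63 ± 0.22, adjusted p = 0.0003) and fell on depletion (-1.31 ± 0.22, adjusted p = 0.00116). Its partner isoform P4ha1 ranged from 479.8 to 781 CPM over the 12 libraries and was called in no comparison by edgeR or DESeq2.

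Hilpda, a lipid droplet protein that restrains lipolysis, had 27.5, 22.5 and 22.5 CPM in BM sorted, 9.20, 12.9 and 8.60 CPM in BM nonsorted, 9.19, 6.75 and 9.75 CPM in BAC depleted and 8.46, 13.7 and 21.5 CPM in BAC nondepleted libraries. The BM sorted libraries were above all others, by 1.498 ± 0.31, adjusted p = 0.00289 over BAC depleted and 1.24 ± 0.30, adjusted p = 0.0356 over BM nonsorted libraries, where the adjusted p was 0.131 (BM sorted 1 left out), 0.0787 (BM sorted 2 left out), 0.0845 (BM sorted 3 left out), 0.156 (BM nonsorted 1 left out) and 0.146 (BM nonsorted 3 left out). Kdm3a, a histone demethylase, had 96.7, 76.6 and 79.1 CPM in BM sorted, 57.6, 63.1 and 61.4 CPM in BM nonsorted, 63.9, 59.8 and 71.2 CPM in BAC depleted and 74.2, 77.1 and 70.3 CPM in BAC nondepleted libraries. It rose on sorting (0.47 ± 0.11, adjusted p = 0.0222), with an adjusted p of 0.081 (BM sorted 1 left out), 0.114 (BM nonsorted 1 left out), 0.0604 (BM nonsorted 2 left out) and 0.0732 (BM nonsorted 3 left out), and was higher in BM sorted than in BAC depleted cells (0.37 ± 0.11, adjusted p = 0.015; adjusted p = 0.0703 in a fit of these groups only). Ddit4, an inhibitor of mTORC1, had 124, 119 and 122 CPM in BM sorted, 40.6, 63.7 and 69.4 CPM in BM nonsorted, 70.02, 22.0 and 10.96 CPM in BAC depleted and 9.40, 14.5 and 18.6 CPM in BAC nondepleted libraries. It was higher in marrow cells both between the purified groups (1.82 ± 0.56, adjusted p = 0.0214), with an adjusted p of 0.0626 (BAC depleted 2 left out), and between the unpurified groups (2.03 ± 0.56, adjusted p = 0.0216), with an adjusted p of 0.0591 (BM nonsorted 2 left out), 0.0566 (BM nonsorted 3 left out), 0.0787 (BAC nondepleted 1 left out) and 0.0654 (BAC nondepleted 2 left out). BAC depleted 1 had the highest Ddit4 level of the bone-associated libraries, and without it the first of these values was 2.88 ± 0.39, adjusted p = 0.000556.

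Adm, which encodes the vasodilator adrenomedullin, was higher in bone-associated cells and had 112, 115 and 119 CPM in BM sorted, 83.6, 86.4 and 86.7 CPM in BM nonsorted, 181, 453 and 265 CPM in BAC depleted and 292, 338 and 340.2 CPM in BAC nondepleted libraries. Its log2 fold change was -1.92 ± 0.26, adjusted p = 0.00104 for BM nonsorted minus BAC nondepleted and -1.38 ± 0.26, adjusted p = 0.00185 for BM sorted minus BAC depleted. Mxi1, an antagonist of Myc that competes for its partner Max, was also higher in bone-associated cells and had 52.9, 40.5 and 36.4 CPM in BM sorted, 38.5, 42.9 and 46.8 CPM in BM nonsorted, 59.6, 64.2 and 64.4 CPM in BAC depleted and 72.3, 74.1 and 83.7 CPM in BAC nondepleted libraries. It differed by -0.84 ± 0.14, adjusted p = 0.00202 between the unpurified and by -0.54 ± 0.14, adjusted p = 0.00882 between the purified groups. Ankrd37, a small HIF target, had 5.00, 3.15 and 3.65 CPM in BM sorted, 4.95, 3.69 and 5.15 CPM in BM nonsorted, 4.36, 2.44 and 1.96 CPM in BAC depleted and 7.32, 8.47 and 6.52 CPM in BAC nondepleted libraries and fell on depletion (-1.34 ± 0.31, adjusted p = 0.00705). Bnip3, a receptor for mitophagy, had 139, 124 and 122 CPM in BM sorted, 96.6, 109 and 125 CPM in BM nonsorted, 53.6, 74.9 and 109 CPM in BAC depleted and 104, 144 and 203 CPM in BAC nondepleted libraries. It was lower after depletion (-0.92 ± 0.27, adjusted p = 0.0239) with overlapping libraries, and the adjusted p was 0.0672 (BAC depleted 1 left out), 0.059 (BAC depleted 2 left out), 0.0509 (BAC nondepleted 2 left out) and 0.0894 (BAC nondepleted 3 left out). Higd1a, a mitochondrial protein, ranged from 52.6 to 112 CPM and was called in no comparison by edgeR or DESeq2.

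Within pairs of related genes, the share of each in the summed CPM of the pair was compared between groups. These shares are not per length, so only their change across groups is read, and with 3 libraries a group they were not tested. Egln3 made up 30.0% ± 2.51 of the Egln1 and Egln3 sum in BM sorted, 31.0% ± 1.99 in BM nonsorted, 7.58% ± 1.63 in BAC depleted and 18.5% ± 8.71 in BAC nondepleted cells (mean ± SD, n = 3 each). P4ha2 made up 47.3% ± 0.972 of the P4ha1 and P4ha2 sum in BM sorted, 43.8% ± 3.75 in BM nonsorted, 24.4% ± 2.85 in BAC depleted and 45.2% ± 3.66 in BAC nondepleted cells. In both pairs that gene held its smallest mean share in BAC depleted cells, although for Egln3 the library BAC nondepleted 3 lay within their range. Slc2a3 made up 15.2% ± 4.98 of the glucose transporter pair in BM sorted, 6.49% ± 2.54 in BM nonsorted, 5.14% ± 1.52 in BAC depleted and 5.96% ± 1.21 in BAC nondepleted cells. Hk2 made up 30.2% ± 1.65 of the hexokinase pair in BM sorted, 20.4% ± 3.73 in BM nonsorted, 16.8% ± 6.03 in BAC depleted and 24.9% ± 1.702 in BAC nondepleted cells. BM sorted cells had the largest share of both. Pfkfb4 ran the other way in marrow, at 6.48% ± 1.37 of its pair in BM sorted and 16.3% ± 2.86 in BM nonsorted cells.

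**Figure D4:**
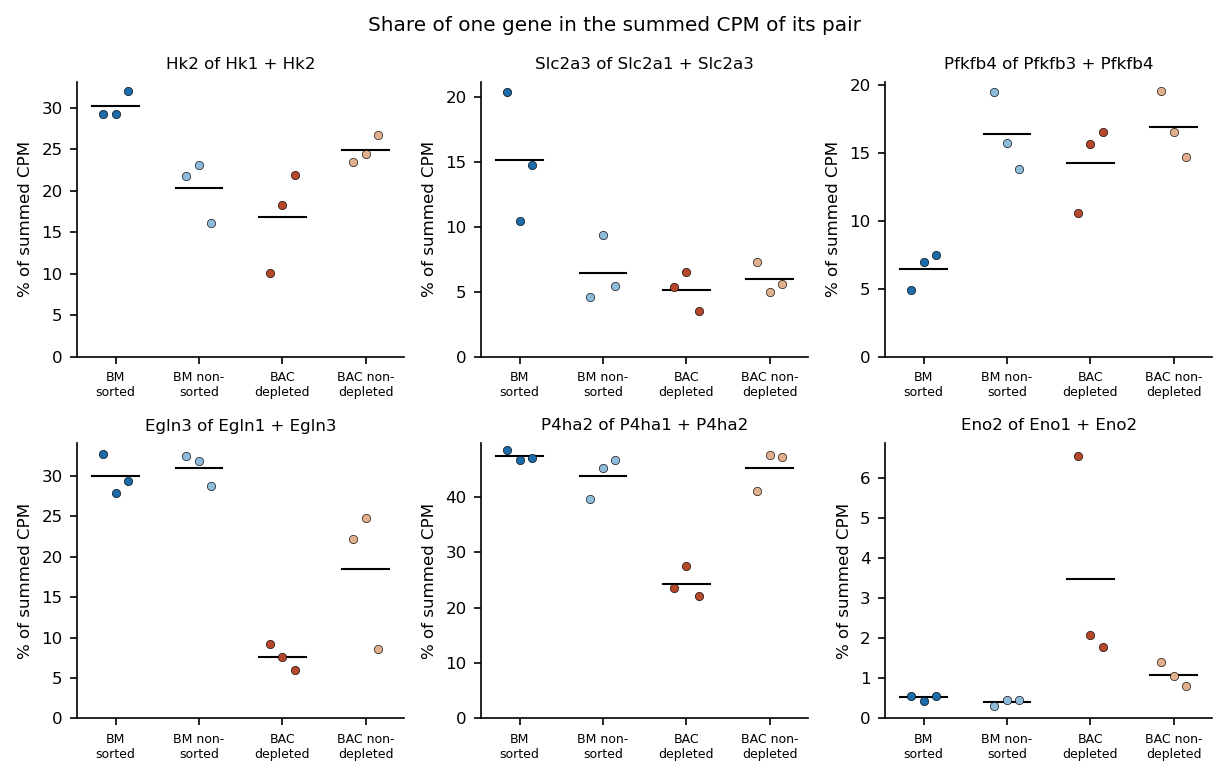
Share (%) of 1 gene in the summed CPM of its pair for 6 pairs, 1 point per library with lines for group means, for the groups BM sorted, BM nonsorted, BAC depleted and BAC nondepleted from left to right. Egln3 holds 30.0% of its pair on average in BM sorted, 31.0% in BM nonsorted, 7.58% in BAC depleted and 18.5% in BAC nondepleted cells.

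The comparison of BM sorted with BAC depleted cells asks how purified stroma of marrow and bone differ. Compartment, tissue dissociation, purification method and the positive selection for CD51 and Sca-1 change together in it and cannot be told apart. Outside the 38 genes, 25 further genes of glycolysis and sugar entry were tested, of which 11 were higher and 6 lower in BM sorted cells. Tigar, which opposes glycolysis by lowering the activator of phosphofructokinase, was higher (1.81 ± 0.27, adjusted p = 0.000529), and Pfkfb2, a heart-type relative of Pfkfb3, was lower (-2.29 ± 0.48, adjusted p = 0.00324). Of 9 genes of the pentose phosphate pathway, which branches off after hexokinase, 5 were higher and 0 lower (0 lower also at an unadjusted p under 0.05), including Pgd (0.59 ± 0.22, adjusted p = 0.0483). Pyruvate entry into mitochondria and gluconeogenesis had 2 of 15 higher and 6 lower. Pdk4, another kinase that blocks pyruvate dehydrogenase, had 273 ± 59.8 CPM in BM sorted and 21.5 ± 12.2 CPM in BAC depleted cells (3.67 ± 0.54, adjusted p = 0.000504). Pdp1, the phosphatase that reactivates pyruvate dehydrogenase, had 25.8 ± 8.87 CPM in BM sorted and 484 ± 325 CPM in BAC depleted cells (-4.23 ± 0.54, adjusted p = 0.000227). Of 9 glycogen genes 3 were higher and 2 lower, with Gys1, muscle-type glycogen synthase, higher (1.32 ± 0.21, adjusted p = 0.000768) and the phosphorylase Pygm lower (-4.69 ± 0.99, adjusted p = 0.00348). In either direction 68% of the further glycolysis, 55.6% of the pentose phosphate, 53.3% of the pyruvate and 55.6% of the glycogen genes were called. Of all genes tested 47.4% were.

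Among 11 further genes of oxygen sensing, 3 were higher in BM sorted than in BAC depleted cells and 4 lower. Vhl, the ubiquitin ligase subunit that recognises hydroxylated HIF, was higher (1.13 ± 0.16, adjusted p = 0.000381), and Arnt2, a beta-type partner of HIF, was lower (-2.53 ± 0.39, adjusted p = 0.000698). Of 41 further HIF targets, 13 were higher and 9 lower, with a median of -0.04. These 53.7%, and 63.6% of the 11 oxygen-sensing genes, stand beside the 47.4% of all genes called in either direction. Pgf, a relative of VEGF, was higher (4.14 ± 0.49, adjusted p = 0.000159). Car9, a carbonic anhydrase that is a standard hypoxia marker, was called lower, with 7.45, 10.99 and 9.07 CPM in BM sorted and 76.5, 6.75 and 31.2 CPM in BAC depleted libraries (-2.06 ± 0.66, adjusted p = 0.0262), although BAC depleted 2 lay below all 3 BM sorted libraries. Of 14 regulators linked to Myc and mTORC1, 3 were higher and 2 lower in BM sorted cells, or 35.7% called. Txnip, which limits glucose uptake and is induced by glucose, had the largest difference of those lower (-3.24 ± 0.32, adjusted p = 6.91e-05). Cell cycle markers summed to 523 to 721 CPM in BM sorted and 49.5 to 136 CPM in BAC depleted libraries, and all 8 were called higher in BM sorted cells. Immediate early genes, which respond to dissociation, summed to 284 to 401 CPM and 808 to 9646 CPM, and cartilage markers to 1104 to 3944 CPM and 8584 to 29646 CPM in BM sorted and BAC depleted libraries. The part of these in the glycolytic differences was not tested. Without BAC depleted 1, 26 of the 38 genes were called between the purified groups instead of 27, and the calls of Aldoa and Gpi1 were lost.

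After magnetic depletion of bone-associated cells, 3 of 4 transporters fell, 3 of 9 enzymes of the preparatory steps, 3 of 7 of the later steps, 2 of 3 regulators of flux, 3 of 4 HIF and prolyl hydroxylase genes and 3 of 11 other hypoxia response genes. Slc16a3, Pkm, Gapdh, Pdk1, Egln3 and P4ha2 each fell by more than 1 on the log2 scale. Of the 38 genes, 20 had every BAC depleted library below every BAC nondepleted library and 2 had every one above, where 24.9% and 21.4% of all genes did and 46.3% in either direction. Of 25 further genes of glycolysis and sugar entry, 10 fell and 2 rose. Hk3, the hexokinase of white blood cells, had 3, 0 and 1 counts in BAC depleted libraries, against 2152, 2180 and 1866 counts in BAC nondepleted libraries. Ldhb, the lactate dehydrogenase subunit that favours pyruvate, rose (1.75 ± 0.23, adjusted p = 0.000244), while Ldha was not called. Of 9 pentose phosphate genes 3 fell, Pgd the most (-1.28 ± 0.23, adjusted p = 0.0016), and of 15 genes of pyruvate entry and gluconeogenesis 5 rose and 1 fell. Glycogen genes were split, with 2 of 9 higher and 2 lower, and Ppp1r3c, a glycogen-targeting phosphatase subunit, rose (3.36 ± 0.61, adjusted p = 0.00206). Of 11 oxygen-sensing genes 2 rose and 1 fell, and P4htm, a transmembrane prolyl hydroxylase, rose (1.83 ± 0.22, adjusted p = 0.000137). Of 41 further HIF targets 12 fell and 2 rose. Car9 had 76.5, 6.75 and 31.2 CPM in BAC depleted, against 953, 645 and 471 CPM in BAC nondepleted libraries (-4.17 ± 0.71, adjusted p = 0.00141). Among 14 regulators linked to Myc and mTORC1, 4 rose and 1 fell, the last being Myc (-1.51 ± 0.49, adjusted p = 0.0343), which directly drives glycolytic genes. In either direction 48% of the further glycolysis, 44.4% of the glycogen and 40% of the pyruvate genes were called. The share was 35.7% for the Myc and mTORC1 list, 34.1% for the further HIF targets, 33.3% for pentose phosphate and 27.3% for oxygen-sensing genes. Of all genes tested 37.3% were called, 19.9% lower and 17.4% higher.

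All 14 macrophage markers fell on depletion and all 8 cell cycle markers fell as well, to 49.5 to 136 CPM in BAC depleted, against 405 to 489.8 CPM in BAC nondepleted libraries. Cartilage markers were higher, at 8584 to 29646 CPM in BAC depleted and 1317 to 4555 CPM in BAC nondepleted libraries, and 4 of 5 rose. The part of the removed macrophages in the fall of the 17 genes was not tested. Leaving out BAC depleted 1 left 16 genes called, 1 higher and 15 lower, in place of 19, and 14 of the 19 were among them. The calls of Bnip3, Egln1, Tpi1, Eno2 and Ndrg1 were lost without it. Without that library the log2 fold change on depletion was -1.32 ± 0.24, adjusted p = 0.00295 for Slc16a3, -0.83 ± 0.15, adjusted p = 0.00278 for Gapdh and -1.21 ± 0.16, adjusted p = 0.000508 for Pkm.

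Flow sorting of marrow cells raised Slc2a3, Slc16a1, Hilpda and Kdm3a, 4 of the 38 genes by this test. All 14 macrophage markers fell on sorting, and their part in the result was not tested. The glycolytic enzymes were not called, and 15 of the 38 genes had every BM sorted library above every BM nonsorted library and 3 had every one below, where 12.1% and 16.7% of all genes did and 28.7% in either direction. Of the largest enzymes, Gapdh had 1274 ± 100.3 CPM in BM sorted and 1065 ± 108 CPM in BM nonsorted cells, and Ldha had 1658 ± 114 CPM and 1658 ± 41.7 CPM in the same groups (mean ± SD, n = 3 each). Leaving out 1 library moved the 4 calls to between 1 and 4. Only the call of Slc16a1 held in each case, and it alone was left when BM sorted 1, BM nonsorted 1 or BM nonsorted 3 was dropped. Of the 25 further glycolysis genes 1 rose and 2 fell. Hk3 had 1, 0 and 2 counts in BM sorted, against 1936, 1515 and 1362 counts in BM nonsorted libraries. Of the 41 further HIF targets 0 rose and 3 fell by edgeR, and 4 were higher at an unadjusted p under 0.05. In either direction 12% of the further glycolysis genes and 7.32% of the further HIF targets were called, against 6.23% of all genes tested. Txnip had 23.6, 33.5 and 24.4 CPM in BM sorted, against 241, 207 and 178 CPM in BM nonsorted libraries (-2.94 ± 0.32, adjusted p = 0.000147). Taldo1 of the pentose phosphate pathway fell (-0.69 ± 0.13, adjusted p = 0.00631), Pcx of gluconeogenesis rose (0.99 ± 0.23, adjusted p = 0.0282), and none of the 9 glycogen and 11 oxygen-sensing genes was called by edgeR. At an unadjusted p under 0.05, 2 of these glycogen genes and 1 of these oxygen-sensing genes were higher and 0 were lower.

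Between the unpurified preparations 3 of the 16 glycolytic enzymes were called, where 31.7% of all genes tested were. Of 14 macrophage markers 13 were lower in BM nonsorted cells, and their part in the result was not tested. Hk1 and Eno1 were higher and Pfkp lower in BM nonsorted than in BAC nondepleted cells, and the hypoxia response genes Ndrg1, Adm and Mxi1 were lower and Ddit4 higher. Hif1a and Slc16a1 were lower as well. In 8 of the 38 genes every BM nonsorted library was above every BAC nondepleted library and in 9 every one was below, where 27.3% and 28.7% of all genes were and 56.0% in either direction. The calls of Ndrg1, Adm and Mxi1 held whichever library was left out, and the count of 9 ranged from 3 without BM nonsorted 2 to 7 without BAC nondepleted 3. Without BM nonsorted 3 it was 4, and it was 5 without BM nonsorted 1, BAC nondepleted 1 or BAC nondepleted 2. Of the 41 further HIF targets 13 were lower and 4 higher. Car9 had 5.29, 7.44 and 7.78 CPM in BM nonsorted libraries and 953, 645 and 471 CPM in BAC nondepleted libraries (-6.66 ± 0.80, adjusted p = 0.000609), the widest gap among them. Pgf went the other way (6.59 ± 0.59, adjusted p = 0.000189), but had only 4, 4 and 5 counts in BAC nondepleted libraries, against 662, 491 and 352 counts in BM nonsorted libraries. Pdk4 was higher (5.23 ± 0.58, adjusted p = 0.000414) and Pdp1 lower (-3.53 ± 0.52, adjusted p = 0.00148), as between the purified groups. Those are other libraries, but the labels do not say whether they share animals or cultures with the unpurified groups. Of 25 further glycolysis genes 4 were higher and 6 lower, of 9 pentose phosphate genes 0 were called (0 also at an unadjusted p under 0.05), of 15 genes of pyruvate entry 1 was higher and 4 lower, and of 14 regulators linked to Myc and mTORC1 3 were higher. Of 9 glycogen genes 1 was higher and 1 lower, as were 1 and 1 of 11 oxygen-sensing genes. In either direction 41.5% of the further HIF targets, 40% of the further glycolysis genes and 33.3% of the pyruvate genes were called. The share was 22.2% for glycogen, 21.4% for the Myc and mTORC1 list and 18.2% for oxygen-sensing genes, against 31.7% of all genes tested.

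**Figure D5:**
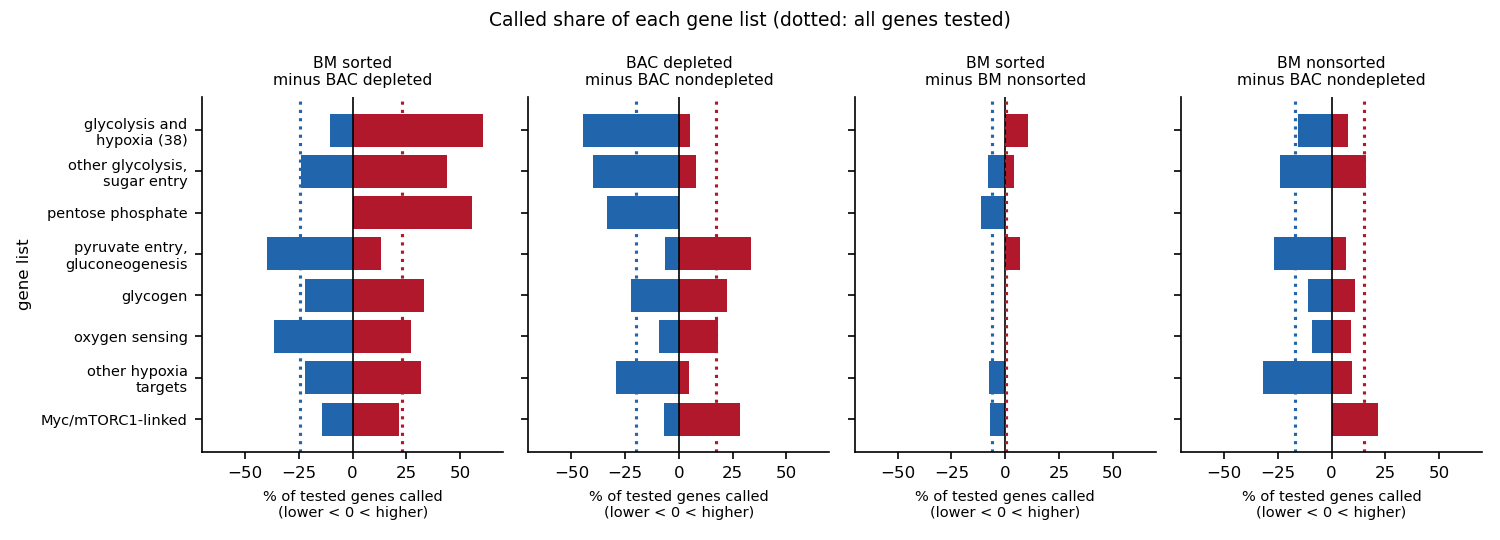
Share (%) of tested genes called higher (right of 0) and lower (left of 0) in each of the 4 comparisons, for the 38 genes and 7 wider pathway lists, with dotted lines at the share over all genes tested. The bar of the 38 genes reaches 60.5% higher for BM sorted minus BAC depleted and 44.7% lower for BAC depleted minus BAC nondepleted.

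Whether sorting of marrow cells changed these genes differently from depletion of bone-associated cells was tested as the difference of both effects, sorting minus depletion. Compartment, purification method and the positive selection for CD51 and Sca-1 change together in it and cannot be told apart. The difference was called for 12 of the 38 genes and was positive in each. A negative difference had an unadjusted p under 0.05 in 1 gene and was called by DESeq2 in 1. The 12 make up 31.6% against 5.08% of all genes called in that direction and 8.06% in either, with a median of 0.84 over the 38 genes and -0.06 over all genes. Slc2a3 (2.71 ± 0.51, adjusted p = 0.0147), Egln3 (2.41 ± 0.39, adjusted p = 0.00795), Slc16a1 (1.63 ± 0.19, adjusted p = 0.00224) and P4ha2 (1.62 ± 0.31, adjusted p = 0.014) were called under each of the alternative settings run. For Slc2a3 the effect was 1.703 on sorting and -1.01 on depletion, and for Egln3 0.26 and -2.14. For Slc16a1 it was 0.71 and -0.92, and for P4ha2 0.31 and -1.31. For Egln3 and P4ha2 the larger effect was the fall on depletion, and Slc16a1 was called in opposite directions. The lactate exporter Slc16a3 (1.65 ± 0.39, adjusted p = 0.0318), Gapdh (1.28 ± 0.28, adjusted p = 0.0221), Pkm (1.17 ± 0.25, adjusted p = 0.0231), Hilpda (2.004 ± 0.43, adjusted p = 0.022) and Hif1a (1.56 ± 0.41, adjusted p = 0.0458) were also called, as were Pdk1, Pfkp and Kdm3a. These 8 calls depended on single libraries, and the count of 12 ranged from 4 without BM nonsorted 1 or BM sorted 3 to 19 without BAC depleted 3. Without BAC depleted 1 it was 14, and the calls of Hif1a and Pdk1 were lost (adjusted p = 0.0577 and 0.0583). Of 8 cell cycle markers all 8 had a positive difference and 6 were called, with a median of 2.51. Of 14 macrophage markers 12 had a positive difference and 1 was called, with a median of 2.75. Their part in the result was not tested. The count of 12 was 5 without BM nonsorted 3 or BAC nondepleted 2, 6 without BM nonsorted 2 and 7 without BM sorted 2.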

How the data were processed

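The authors deposited 1 table of raw read counts per gene for 12 mouse libraries, 3 in each of 4 groups, with 27937709 to 32164725 counts per library. Per the labels' protocols, 50 ng of RNA entered a low-input library kit. The submitters' processing notes name STAR 2.7.9a, featureCounts of Subread 2.0.1, MultiQC 1.7 and the build GRCm39. The sources used here give neither the annotation release, the strand setting nor the treatment of reads with several matches, which makes antisense, overlapping and near-identical genes uncertain. Of 53819 entries, 22808 had 0 counts throughout. The 1442 entries with an Ensembl identifier only held 0.0130% to 0.0297% of a library's counts and were kept.

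From the deposited counts, edgeR 4.0.16 in R 4.3.3 was run with TMM scaling and filterByExpr on the groups, which left 15698 genes. All 12 libraries entered 1 fit of 4 group means (common dispersion 0.0969, 8 residual degrees of freedom), and contrasts were tested with the two-sided quasi-likelihood F test with robust dispersions. A gene was called at a Benjamini-Hochberg adjusted p under 0.05 over all genes of a comparison. The SE is the absolute log2 fold change over the square root of F. CPM used TMM-scaled library sizes and is not per length. The steps were tested on simulated counts that gave every gene and group the common dispersion, with known changes in BM sorted only. An unequal spread between groups was not simulated.

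The 38 genes, their division by role, the pathway lists and the marker lists were chosen with earlier results of these data known. Genes of the list are described in full where called in a comparison of 2 groups without overlap between libraries. From each pathway list, up to 3 genes per direction with the largest fitted change could be named. The values of 1 such gene are not reported here. The labels do not say whether replicates were separate animals or cultures, and p-values therefore reflect only how these libraries vary, possibly for technical reasons. By its Xist and Y-linked counts, BAC depleted 1 differed in sex, and so in animal, from BAC depleted 2 and BAC depleted 3. Replicates were not copies of each other (chi-square per degree of freedom at least 15.2). Their spread was unequal. The value was 15.2 to 89.3 within the marrow groups, 111 to 228 in BAC nondepleted and 321 to 420 in BAC depleted cells. The fit of all 12 libraries used a spread shared by the 4 groups, so its SE and p-values do not follow these differences. Alternatives were other scalings (DESeq2 size factors, upper quartile), other low-count filters (none, or at least 5 CPM in 3 libraries), DESeq2 1.42.0's Wald test, a fit of the compared groups only, a replicate block, and leaving out each library. Promoter sequences are from RefSeq.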

Additional observations from a re-analysis of the deposited data

Results flagged for a closer look

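For 12 genes the effect of flow sorting in marrow differed from that of magnetic depletion in bone-associated cells by the test of the difference itself (edgeR's quasi-likelihood test, adjusted p under 0.05). Compartment and purification method change together here and cannot be told apart. Each difference, the effect of sorting minus the effect of depletion on the log2 scale, was positive. It was 2.71 for Slc2a3, 1.63 for Slc16a1 and 1.65 for Slc16a3 among the transporters. It was 0.88 for Pfkp, 1.28 for Gapdh and 1.17 for Pkm among the enzymes, and 1.12 for the regulator Pdk1. It was 1.56 for Hif1a and 2.41 for Egln3 among the oxygen-sensing genes, and 1.62 for P4ha2, 2.004 for Hilpda and 0.66 for Kdm3a among the other hypoxia response genes. Only Slc2a3, Slc16a1, Egln3 and P4ha2 kept the call under each alternative setting, and the others lost it when certain single libraries were left out.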

How the results depend on the processing

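The 5 counts of called genes stayed within 1.5 times under DESeq2 size factors, upper quartile scaling and both other low-count filters. The replicate block reduced the 4 calls on sorting to 2. Deviations from the group means correlated between same-numbered libraries at -0.32, 0.128 and -0.0387 in marrow and 0.257, 0.0378 and 0.0786 in bone-associated cells. With 3 libraries a group these correlations cannot show whether same-numbered libraries shared an animal or batch, and the labels do not say. BAC depleted 1 held 43406 Xist and 0 Y-linked counts, and BAC nondepleted 1 held 2 and 8419. These same-numbered libraries differed in sex and so were not from the same animal. For the other same-numbered libraries a shared animal was not tested. A fit of the compared groups only gave 7 genes on sorting, 12 on depletion and 15 between the unpurified groups. That fit lost the calls of Kdm3a on sorting, of Slc2a1, Tpi1, Pgk1, Eno2, Hif1a, Egln1 and Bnip3 on depletion, of Slc2a1, Gpi1, Aldoa, Pgam1, Kdm3a and Ddit4 between the purified groups, and of Slc16a1 between the unpurified groups (adjusted p 0.0513 to 0.156). The other scalings and filters lost the calls of Aldoa and Ddit4 between the purified groups, of Hk1, Eno1, Slc16a1 and Ddit4 between the unpurified groups, and of Egln1 and Ndrg1 on depletion. The block also lost those of Aldoa between the purified groups, of Slc16a1, Hk1 and Eno1 between the unpurified groups, of Ndrg1 on depletion, and of Pfkp, Hif1a and Kdm3a for the difference of effects. DESeq2's Wald test lost none and gave 21 genes for the difference of effects. The cause of these shifts was not tested. With 1 library left out, the count ranged from 1 to 4 on sorting, from 13 to 22 on depletion, from 25 to 30 between the purified groups, from 3 to 7 between the unpurified groups and from 4 to 19 for the difference of effects. No call changed sign under any of these. The precision rests on 3 libraries a group.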
